A study of Macaca mulatta with 2 samples.

Results

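The genes described here mark the bipolar, amacrine and horizontal cells and the Müller glia of the inner retina, together with the transcription factors that pattern the retina. They were read by symbol from the normalized table of macaque optic nerve RNA, which held 31 of the 32 genes on the list, out of 16684 genes in all. *CABP5*, a calcium-binding protein gene of bipolar cells, was not among the listed symbols. The series holds 1 condition, wild-type untreated optic nerve of *Macaca mulatta*, sequenced as 2 libraries named Rep1 and Rep2. The methods name a single adult male as the source, the nerves having been donated postmortem as discarded tissue, whereas the series description names different animals, so it is not known whether the libraries come from separate animals. Values are TPM, each gene's share of the length-corrected reads of a library, and each library therefore adds up to the same total.

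Visual signals pass from photoreceptors to bipolar cells and from there to the ganglion cells, whose axons form the optic nerve. In darkness, glutamate from photoreceptors acts on the receptor mGluR6 of ON bipolar cells, and a G protein cascade keeps the channel TRPM1 closed. Horizontal and amacrine cells shape this signal sideways through GABA, glycine and acetylcholine, and Müller cells are the radial glia that support all of these neurons. Their cell bodies lie in the retina, and a nerve is known to hold mainly axons, oligodendrocytes, astrocytes, vessels and connective tissue.

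The libraries stood apart. On the TPM scale a single read of Rep1 weighed as much as 17.2 reads of Rep2, so Rep1 held fewer length-corrected reads, and 61.5% of all genes were above 0 in Rep1 against 87.5% in Rep2. The median difference between Rep1 and Rep2 over the 14693 genes above 0 in at least 1 library was -1.07 on the log2(TPM + 1) scale. All 23 markers of oligodendrocytes, astrocytes, vessels, fibroblasts and microglia were lower in Rep1, as were 11146 of the 14693 genes. At least 2-fold lower were 21 of the 23, beside 51.3% of the 14693, while *CSF1R* of microglia hardly differed (61.3 and 62.2 TPM). Their summed level was 48696 TPM in Rep1 against 234492 in Rep2, and *VWF* of endothelial cells was at 0 in Rep1. The defining myelin gene *MBP* stood at 43721 TPM in Rep1 against 199595 in Rep2, so the myelin marker of the labelled tissue was abundant in both. The part of these shifts in the results below was not tested.

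Inner retinal and Müller cell genes were on the whole higher in Rep1, against the general shift. Of the 31 listed genes, 23 were above 0 in Rep1 and 24 in Rep2, where 61.5% and 87.5% of all genes were. At 0 in Rep1 only were 5 of the 31, beside 4434 of all 16684 genes. At 0 in Rep2 only were 4, beside 91 of all genes. Their summed level was 3993 TPM in Rep1, or 0.399% of that library, and 271 TPM in Rep2, or 0.0271%. A total of 17 genes were at least 2-fold higher in Rep1 on the log2(TPM + 1) scale, whereas 14.8% of the 14693 genes were. Only 4 were at least 2-fold higher in Rep2 (*GRM6*, *RGS11*, *PCP2* and *CALB1*), against 51.3% of the 14693 genes. With median-of-ratios scaling, where a shift of -1.19 (log2) was taken out, 19 of these genes were at least 2-fold higher in Rep1 and 2 in Rep2, beside 23.7% and 33.8% of all genes. A 10-fold difference in favor of Rep1 was reached by 12 of the 31 genes and by 3.06% of the 14693, a threshold chosen after the values were seen. The median difference was 1.82 over the 28 genes above 0 in at least 1 library and 1.14 over all 31. Over all 16684 genes, those at 0 in both libraries included, the median difference was -0.744.

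Because the libraries belong to 1 condition, these differences are the spread between samples of the same kind, which may be technical, and carry no test. The SD of the TPM values was at least as large as their mean in 22 of the 28 genes and in 54.4% of the 14693 genes. Mean levels of single genes are thus poorly fixed, and the order of genes differed between the libraries. In bulk RNA, more cells of a type and more RNA per cell cannot be told apart.

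**Figure D1:**
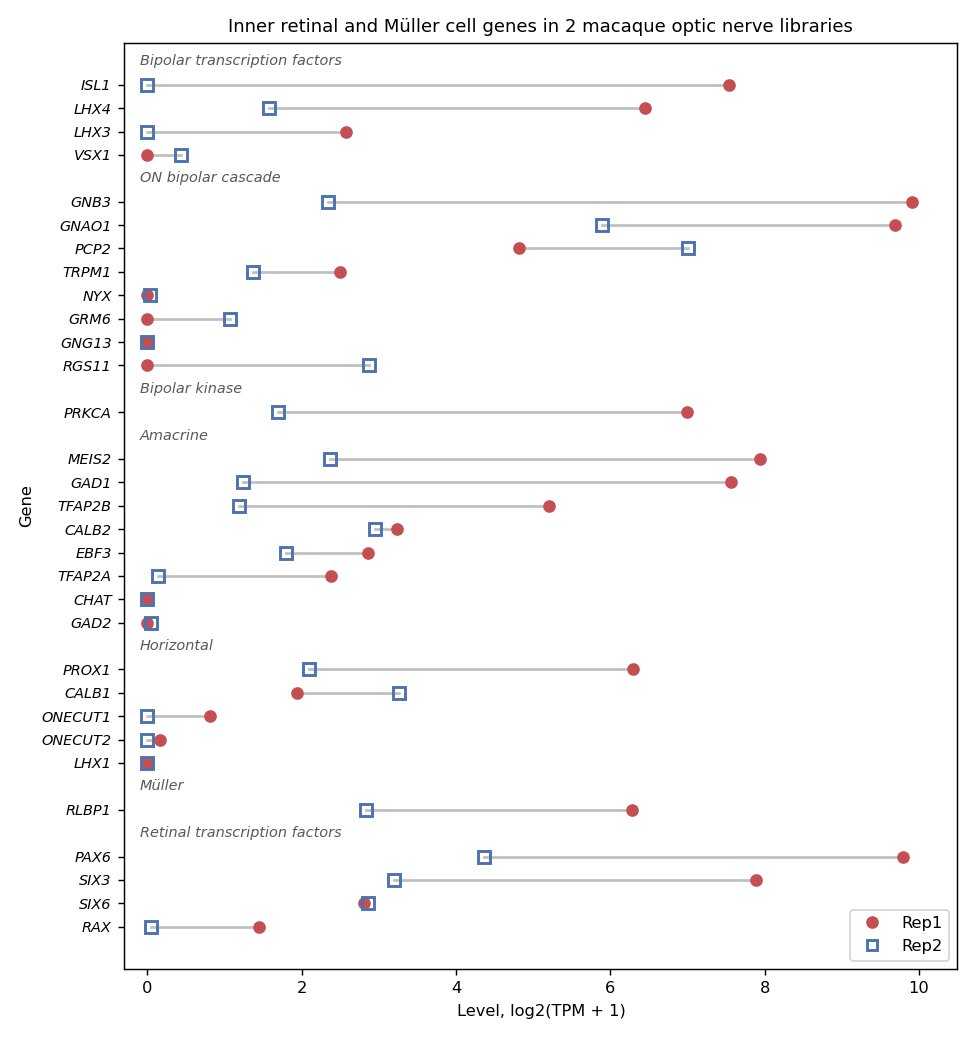
Level of each of the 31 listed genes on the log2(TPM + 1) scale (x axis), grouped by cell class (y axis), with Rep1 as filled circles and Rep2 as open squares joined by a line. The longest lines belong to *GNB3* and *ISL1*, whose circles lie far to the right, while 3 genes (*GNG13*, *CHAT* and *LHX1*) sit at 0 in both libraries.

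The transcription factors of bipolar cells were led by *ISL1*, a LIM homeodomain factor that bipolar cells share with ganglion and cholinergic amacrine cells. *ISL1* was at 186 TPM in Rep1 and listed at 0 in Rep2. *LHX4*, a LIM factor of cone bipolar cells, reached 86.3 TPM in Rep1 against 1.99 in Rep2, from at least 63 and 25 reads. Its paralog *LHX3* was at 4.97 TPM in Rep1 and at 0 in Rep2. Rep1 was the high library for all 3 LIM genes. *VSX1*, a paired-type homeodomain factor of cone bipolar cells, went the other way, with 0 in Rep1 and 0.35 TPM in Rep2. A stretch of 428 exon bases of *LHX4* lies opposite *ACBD6*, a neighboring gene on the other strand. The library kit does not mark strand, so reads there could belong to either gene, and *ACBD6* itself was at 11.3 TPM in Rep1 against 41.5 in Rep2. The part of such reads in the level of *LHX4* was not tested.

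Genes of the ON bipolar cascade differed widely in level, with *GNB3* and *GNAO1* far above the rest in Rep1. *GNB3*, the G protein beta subunit of cones and ON bipolar cells, was at 958 TPM in Rep1 against 4.06 in Rep2 (mean 481 ± 674 TPM, SD, n = 2). It was the highest of the 31 genes in Rep1, where it ranked 173 of all genes, and its ratio of 236 between the libraries rested on at least 933 and 68 reads. *GNAO1*, the alpha subunit that couples to mGluR6 in these cells and is widespread in other neurons, was at 824 TPM in Rep1 against 58.5 in Rep2 (mean 441 ± 541 TPM, SD, n = 2), a ratio of 14.1. Both G protein subunits were therefore abundant in Rep1, and in Rep2 *GNAO1* stood above *GNB3*.

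The receptor and most of its partners did not share this pattern. *GRM6*, which encodes mGluR6, was at 0 in Rep1 and 1.09 TPM in Rep2. *NYX*, which encodes nyctalopin, a surface protein needed for the position of the channel, was at 0 in Rep1 and 0.0250 TPM in Rep2. *RGS11*, which speeds the shut-off of the G protein, was at 0 in Rep1 and 6.35 TPM in Rep2. These 3 genes were seen in Rep2 alone. The gamma subunit gene *GNG13* was at 0 in both libraries. The channel gene *TRPM1* was at 4.66 TPM in Rep1 against 1.57 in Rep2, a ratio of 2.97 on at least 14 and 81 reads. *PCP2*, a modulator of Go found in ON bipolar cells and cerebellar Purkinje cells, was at 27.2 TPM in Rep1 against 127 in Rep2, the highest of the 31 genes in Rep2, where it rested on at least 1363 reads. So 3 of the 8 cascade genes were at least 2-fold higher in Rep1, 3 were so in Rep2, *NYX* differed by less and *GNG13* was not seen. Each share was 42.9% of the 7 genes above 0, beside 14.8% and 51.3% of the 14693 genes. A value of 0 in Rep1 does not show absence at its depth.

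*PRKCA*, the alpha form of protein kinase C used to label rod bipolar cells and active in many other cells, was at 127 TPM in Rep1 against 2.22 in Rep2. The ratio was 56.9, on at least 222 and 67 reads.

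Promoter windows are shown for genes that part ways within these groups, taken as the 250 bases before the annotated gene start in Mmul_10 (RefSeq). *ISL1* and *MEIS2* are given because they were among the 3 of the 31 windows that held TAATTA, the letters bound by many LIM and paired-type homeodomain proteins. The third, *TRPM1*, is named only. These 3 genes were at least 2-fold higher in Rep1, but so were 17 of the 31 genes in all, most of them without TAATTA. A relation between the letters and the levels was not tested. *GRM6* is given as the receptor gene of the cascade, seen in Rep2 alone. Capitals mark TAATTA, which reads the same on both strands.
*ISL1* (chr6:49570594-49570843, plus strand): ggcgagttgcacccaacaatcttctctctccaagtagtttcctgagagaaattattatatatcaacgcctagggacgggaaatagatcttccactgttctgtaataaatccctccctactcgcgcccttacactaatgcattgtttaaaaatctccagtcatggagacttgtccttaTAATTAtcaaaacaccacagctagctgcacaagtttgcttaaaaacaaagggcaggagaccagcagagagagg
*MEIS2* (chr7:13538336-13538585, minus strand): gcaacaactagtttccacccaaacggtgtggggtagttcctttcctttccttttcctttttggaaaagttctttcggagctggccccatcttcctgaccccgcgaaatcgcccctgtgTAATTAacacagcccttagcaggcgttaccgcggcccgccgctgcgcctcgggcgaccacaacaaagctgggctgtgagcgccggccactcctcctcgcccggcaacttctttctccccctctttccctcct
*GRM6* (chr6:176391479-176391728, minus strand): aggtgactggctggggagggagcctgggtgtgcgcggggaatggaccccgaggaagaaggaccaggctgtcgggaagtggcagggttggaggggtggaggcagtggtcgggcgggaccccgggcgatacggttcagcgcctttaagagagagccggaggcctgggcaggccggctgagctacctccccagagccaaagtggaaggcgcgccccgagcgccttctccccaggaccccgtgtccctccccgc

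The letters begin at position -73 in *ISL1* and -132 in *MEIS2*, counted back from the annotated start. They were present in 3.81% of the 16679 windows of listed genes. TAATCC, bound by OTX2 and CRX, was in 0 of the 31 windows and in 8.45% of all windows. Of the E-boxes, CAGATG was in the window of *CHAT* (as its reverse complement) and in 10.3% of all windows, while CATATG was in 0 of the 31 and in 2.01% of all. All were searched on both strands, TAATCC and TAATTA share their first letters but cannot occupy the same 6 bases, and a match is a run of letters, not a measured site. The GC content of the windows shown ran from 42.8% in *ISL1* through 58.4% in *MEIS2* to 70% in *GRM6*, beside a median of 59.2% over all windows.

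Among amacrine cell genes, *MEIS2*, a homeodomain factor of GABAergic amacrine cells that many other cells also use, was highest in Rep1 at 245 TPM, against 4.14 TPM in Rep2, a ratio of 59.1. *GAD1*, which makes the inhibitory transmitter GABA, was at 189 TPM in Rep1 against 1.35 in Rep2, a ratio of 140 on at least 155 and 19 reads. Its paralog *GAD2* was at 0 in Rep1 and 0.0366 TPM in Rep2. Only *GAD1* of these paralogs was thus high in Rep1. *TFAP2B*, an AP-2 factor of amacrine and horizontal cells, was at 35.9 TPM in Rep1 against 1.27 in Rep2, and *TFAP2A* of the same family at 4.18 TPM in Rep1 against 0.0973 in Rep2, the latter on at least 5 and 2 reads. In both libraries *TFAP2B* stood above *TFAP2A*, by a ratio of 8.58 in Rep1 and 13.1 in Rep2.

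The remaining amacrine genes were low. *EBF3*, an early B-cell factor family gene, was at 6.27 TPM in Rep1 against 2.48 in Rep2. *CALB2*, which encodes calretinin, was at 8.42 TPM in Rep1 against 6.69 in Rep2, a difference under 2-fold, with as few as 3 reads possible in Rep1. *CHAT*, which makes acetylcholine in starburst amacrine cells, was at 0 in both. In all, 5 of the 8 amacrine genes were at least 2-fold higher in Rep1 and none in Rep2, beside 14.8% and 51.3% of the 14693 genes.

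Among horizontal cell genes, 1 exceeded 10 TPM. *PROX1*, a homeodomain factor of horizontal cells and also of lymphatic endothelium and other cells, was at 77.3 TPM in Rep1 against 3.27 in Rep2, on at least 73 and 53 reads. *CALB1*, which encodes the calcium-binding protein calbindin, was lower in Rep1, at 2.84 TPM on at least 1 read, than in Rep2, at 8.60 TPM on at least 52. *ONECUT1* at 0.75 TPM and *ONECUT2* at 0.119 TPM were above 0 in Rep1 alone. Both values were low, and no read number could be recovered for them, so they may rest on very few reads. *LHX1*, the LIM factor of horizontal cells, was at 0 in both libraries. Apart from *PROX1*, the horizontal cell genes were thus at most 8.60 TPM in either library.

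*RLBP1* was the single Müller glia gene, coding for the retinaldehyde-binding protein of the visual cycle, which pigment epithelium also makes. It stood at 76.7 TPM in Rep1 against 6.12 in Rep2 (mean 41.4 ± 49.9 TPM, SD, n = 2), a ratio of 12.5 on at least 27 and 37 reads. Of 12 pigment epithelium genes, 0 were at least 2-fold higher in Rep1 and 7 were so in Rep2, where 51.3% of the 14693 genes were, and their summed level was 184 TPM in Rep1 against 763 in Rep2. In Rep1, 8 of the 12 were above 0, led by *SERPINF1* at 123 TPM, and the other 4 (*TYR*, *TYRP1*, *LRAT* and *RGR*) were at 0. The part of pigment epithelium RNA in the level of *RLBP1* was not tested. Most other Müller genes lay the other way. Of 20 on a further list, 15 (75%) were at least 2-fold higher in Rep2 and 3 (15%) in Rep1, with a median difference of -2.44. Over the 14693 genes these shares were 51.3% and 14.8%. *CLU* (809 and 10446 TPM in Rep1 and Rep2), *VIM* (513 and 2687 TPM) and *GLUL* (364 and 1506 TPM) were the highest, and these are genes that optic nerve astrocytes use as well. The 3 exceptions, named after their values were seen, were the transcription factors *LHX2* (136 and 5.71 TPM), *HES1* (182 and 39.4 TPM) and *SOX9* (50.2 and 20.4 TPM).

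The retinal patterning factors were high in part. *PAX6*, the paired-box factor of eye development that amacrine, horizontal and ganglion cells keep and astrocytes also express, was at 886 TPM in Rep1 against 19.6 in Rep2 (mean 453 ± 613 TPM, SD, n = 2). The ratio of 45.2 rested on at least 666 and 253 reads, and *PAX6* was the second highest of the 31 genes in Rep1. *SIX3*, a homeodomain factor of the early eye field, was at 236 TPM in Rep1 against 8.17 in Rep2, a ratio of 28.8. Its relative *SIX6* did not differ in this way, with 6.02 TPM in Rep1 against 6.27 in Rep2 on at least 17 and 304 reads, and it was slightly higher in Rep1 after scaling by the median of ratios. *RAX*, the retinal homeobox gene, was at 1.72 TPM in Rep1 against 0.0334 in Rep2, on at least 3 and 1 reads. *SIX3* exceeded *SIX6* by a ratio of 39.1 in Rep1 and of 1.30 in Rep2.

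**Figure D2:**
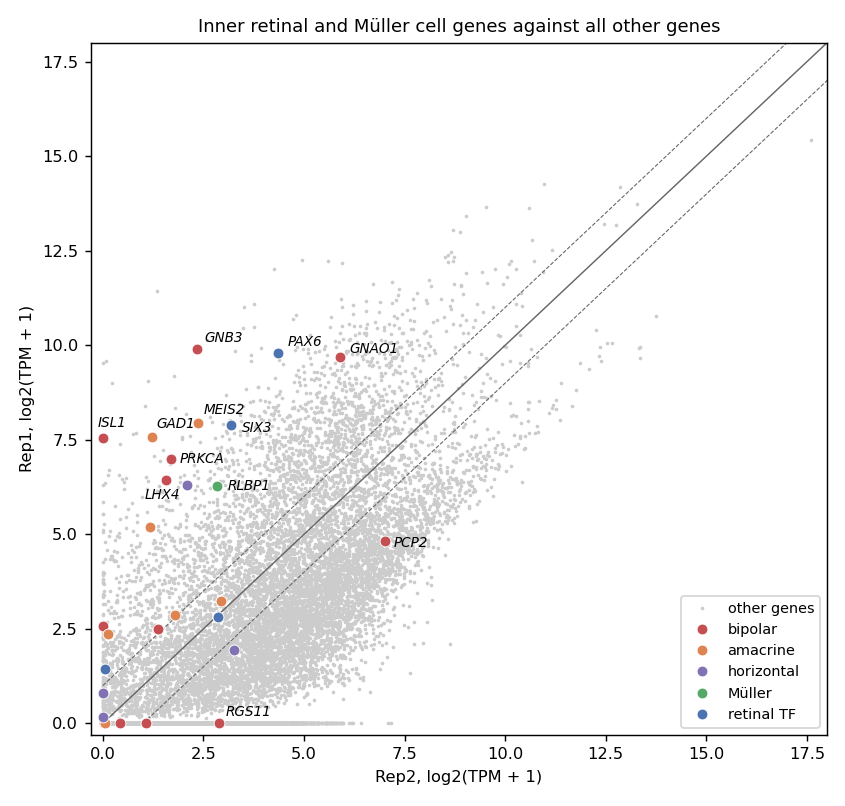
Level in Rep1 (y axis) against Rep2 (x axis), both as log2(TPM + 1), for genes above 0 in at least 1 library, with inner retinal and Müller cell genes colored by class, the solid line at equal levels and dashed lines at a 2-fold difference. Of these genes, 17 lie on or above the upper dashed line, led by *GNB3*, *PAX6* and *GNAO1*, and 4, with *PCP2* and *RGS11* among them, on or below the lower line.

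Set by function, 16 of the genes code for transcription factors and 15 listed genes for other proteins. Of the transcription factors, 11 were at least 2-fold higher in Rep1 and 0 in Rep2, with a median difference of 2.58 over the 15 above 0. Over the 14693 genes, 14.8% were so in Rep1 and 51.3% in Rep2. Among the other proteins, 6 were at least 2-fold higher in Rep1 and 4 in Rep2, the median being 0.29 over the 13 above 0, and the medians were not tested against each other. In Rep1, 13 of the 31 genes exceeded 10 TPM and 7 were among the 1000 highest genes. In Rep2, *PCP2*, *GNAO1* and *PAX6* exceeded 10 TPM and 0 of the 31 were among the 1000 highest. Within Rep1 the order ran from *GNB3*, *PAX6* and *GNAO1* through *MEIS2*, *SIX3*, *GAD1*, *ISL1* and *PRKCA* to *LHX4*, *PROX1*, *RLBP1*, *TFAP2B* and *PCP2*.

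Further genes of the same cell classes, from lists that do not overlap the 31, were examined in the same way. These and the other gene lists were written with earlier results of these data known, so they give no independent support. Of 21 further bipolar genes, 17 were above 0 in at least 1 library, with a median difference of 0.97. Of the 17, 8 (47.1%) were at least 2-fold higher in Rep1 and 2 (11.8%) in Rep2, beside 14.8% and 51.3% of the 14693 genes. *OTX2*, the homeodomain factor of photoreceptors and bipolar cells, was at 769 TPM in Rep1 against 0.0633 in Rep2. *IRX5* of cone bipolar cells was at 31.0 TPM in Rep1 against 2.07 in Rep2. *GRIK1*, the kainate receptor subunit of OFF bipolar cells, was at 16.9 TPM in Rep1 against 0.291 in Rep2. Partners of the mGluR6 cascade on this list differed widely in level. *GNB5*, the G protein beta subunit that pairs with RGS proteins, was at 79.3 TPM in Rep1 against 40.0 in Rep2, and *RGS7*, which like *RGS11* speeds the shut-off, was at 15.6 TPM in Rep1 against 1.30 in Rep2. *GPR179* was at 0 in Rep1 and 0.0551 TPM in Rep2 and *LRIT3* at 0 in both, the last pair being named after their values were seen.

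Of 20 further amacrine genes, 15 were above 0, 6 (40%) being at least 2-fold higher in Rep1 and 3 (20%) in Rep2 (median -0.18). Over the 14693 genes these shares were 14.8% and 51.3%. *TCF4*, a widely used transcription factor, was the highest at 616 TPM in Rep1 against 127 in Rep2. *GJD2*, which encodes the gap junction protein of AII amacrine cells, was at 12.3 TPM in Rep1 against 0 in Rep2. Of 9 listed further horizontal genes, 6 were above 0, with 0 at least 2-fold higher in Rep1 and 4 (66.7%) in Rep2 (median -1.71). The last share is not far from the 51.3% of the 14693 genes.

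Photoreceptor genes were also higher in Rep1 in many cases. Of 36, 22 were above 0 in Rep1 and 30 in Rep2, where 61.5% and 87.5% of all genes were. Among the 33 above 0 in at least 1 library, 14 (42.4%) were at least 2-fold higher in Rep1 and 3 (9.09%) in Rep2. These shares were 14.8% and 51.3% over the 14693 genes. The summed level was 7420 TPM in Rep1 against 106 in Rep2. *GNAT1* and *GNB1* were at 2763 and 2389 TPM in Rep1, while 14 of the 36 were at 0 there, with *NR2E3*, *ARR3* and *RBP3* among them (named after their values were seen). Of all 16684 genes, 6425 were at 0 in Rep1, a like share. Of 18 listed ganglion cell and neuron genes, 16 were above 0, and 6 (37.5%) were at least 2-fold higher in Rep1 and 3 (18.8%) in Rep2. *SNAP25* and *SYT1*, which serve transmitter release in neurons generally, were at 1122 and 769 TPM in Rep1 and 4.99 and 11.9 TPM in Rep2. *THY1*, a surface protein of ganglion cells and other cells, was at 202 TPM in Rep1 against 1535 in Rep2, and *RBPMS*, a ganglion cell RNA-binding protein, was at 155 TPM in Rep1 against 99.9 in Rep2. The part of photoreceptor or other neuronal RNA in the levels of the inner retinal genes was not tested.

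**Figure D3:**
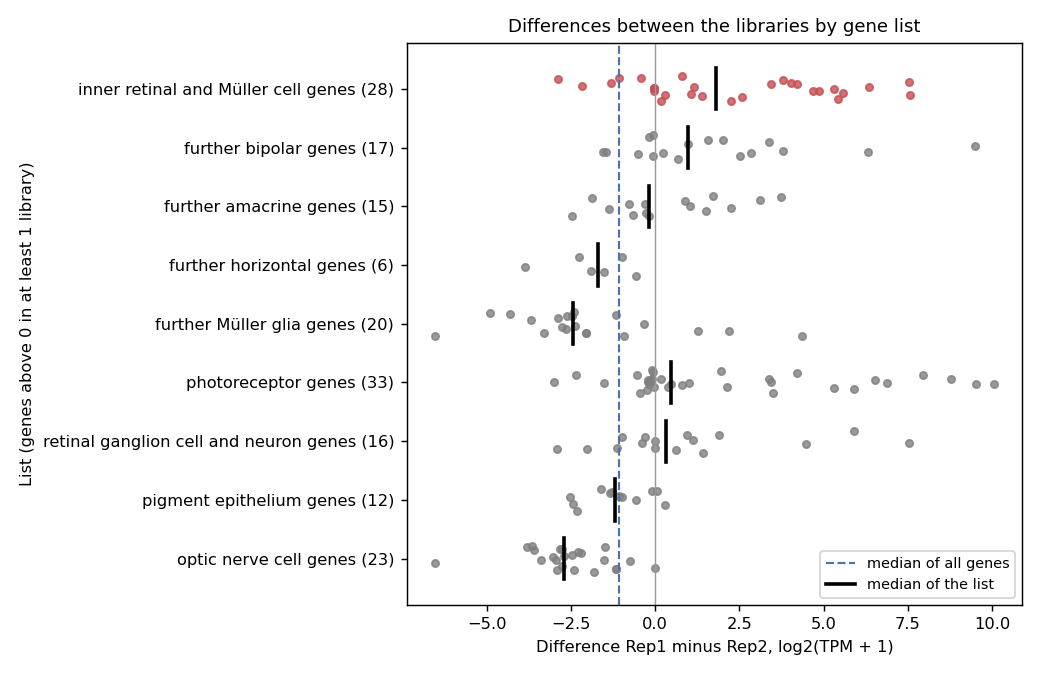
Difference between the libraries, Rep1 minus Rep2 on the log2(TPM + 1) scale (x axis), for each gene above 0 in at least 1 library in 9 gene lists (y axis, number of genes in brackets), with the median of each list as a black bar and that of all 14693 genes as a dashed line. The inner retinal and Müller cell genes have a median of 1.82 and photoreceptor genes of 0.47. Medians of the further Müller glia (-2.44), optic nerve cell (-2.72), further horizontal (-1.71) and pigment epithelium genes (-1.18) lie left of the dashed line at -1.07.

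Most of these genes were well separated from other transcripts. No 50-base stretch of 21 of the 31 genes occurred in a transcript of another gene in either orientation. The highest share was 8.05% in *MEIS2*, from an uncharacterized gene opposite to it, and *TFAP2A* (7.22%), *TRPM1* (5.15%), *LHX4* (5.10%), *PROX1* (4.83%), *SIX3* (4.21%), *LHX1* (4.13%) and *CALB1* (3.78%) likewise shared bases with a gene on the other strand. Reads from these stretches cannot be assigned to either strand, so the levels of those genes are uncertain. Overlaps shorter than 50 bases escape this measure. *PCP2* shares 11 exon bases with *PET100* on the other strand (8.38 TPM in Rep1, 63.4 in Rep2), and *GNG13* shares 24 with *CHTF18*. The part of such reads in the level of *PCP2* was not tested. *PAX6* lies on chromosome 14 of Mmul_10 from 33625603 to 33658148, *GNAO1* on chromosome 20 from 43392689 to 43559583 and *GAD1* on chromosome 12 from 57960027 to 58006388, all on the plus strand and without exons shared with another annotated gene.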

How the data were processed

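Total RNA of 2 untreated macaque optic nerve libraries, prepared with a SMARTer v4 kit for low RNA input, had been sequenced by the authors. They trimmed reads with Trim Galore 0.6.6 after FastQC 0.11.9, used STAR 2.7.1a for alignment to Mmul_10 and featureCounts 1.5.3 for counting; strand and multi-mapping settings and gene lengths are not given in the sources used here. The deposited values are TPM per gene and library, computed by the authors, with no read totals. The column names do not match the sample titles, so both columns were used as replicates of the condition.

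Differences between libraries are of log2(TPM + 1), where low genes appear to change less than they did. Scripts ran in Python 3.11.15 (pandas 2.3.3, numpy 2.4.6, scipy 1.17.1, with matplotlib 3.10.9 for plots). Read numbers are the smallest whole numbers that give a gene's ratio between the libraries (tolerance 1e-12), found for 99.9% of the 10168 genes above 0 in both. They are lower bounds, none exists for a gene at 0 in either library, and amplified copies are not independent. The read recovery was tested on simulated reads, drawn independently at assumed depths and without amplification. The 2-fold counts were also run on these reads, but with no limit to pass, so their accuracy here is not established. Depth itself is unknown, so no interval or detection limit per gene is given. The 31 listed genes were all named, and of other lists at most 8 genes by highest TPM, or as stated, and some items are not reported here. The genes and lists were chosen with earlier results of these data known. With 1 condition there was no test.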

Additional observations from a re-analysis of the deposited data

How the results depend on the processing

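The median difference of the inner retinal and Müller cell genes stayed above 0 under every alternative run, but its size depended on the scale and on the genes counted. From 1.82 it became 3.70 with a pseudocount of 0.1, 2.39 with median-of-ratios scaling, 3.79 when genes averaging under 1 TPM were left out and 1.14 over all 31 listed genes. Low genes differ more under the smaller pseudocount, and the last alternatives change which genes enter. Leaving out the 10 most abundant genes gave 1.97. The number of genes at least 2-fold higher in Rep1 ran from 16 to 19 under these alternatives and was 12 at the 10-fold threshold, chosen after seeing the data. Those at least 2-fold higher in Rep2 fell from 4 to 2 under the median of ratios, where the shift removed was -1.19 (log2) and 23.7% of genes then lay at least 2-fold higher in Rep1, 33.8% in Rep2. *SIX6* alone changed sign under that scaling. With 1 TPM as the limit, 21 genes in place of 23 counted as detected in Rep1 and 19 in place of 24 in Rep2. A limit of 3 reads gave 18 and 17, but could be applied only to the 19 genes above 0 in both libraries, so it leaves out genes such as *ISL1* and says nothing about detection there. Mean levels moved by over 1 SD in 3 cases (*SIX6* under both scalings and *CALB2* without the 10 most abundant genes), but with an SD near or above the mean for most genes this measure could hardly show a change, and leaving out a library says nothing about stability there. The difference between libraries cannot be computed without either. No paired analysis was possible because both libraries belong to the same group.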
